A study of Mus musculus with 2 samples.

Results

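The adenylate kinases and nucleoside diphosphate kinases Ak1, Ak3, Ak4, Nme1, Nme2, Nme3, Nme4, Nme5 and Nme7 were examined in testes of mice with and without UBR2, an N-end rule ubiquitin ligase that male meiosis depends on. A member was read where a probe set of the array had that gene as its only symbol in the platform annotation, which gave 15 probe sets for 8 of the 9 genes, out of 12393 genes read in all. Nme3 had no such probe set. Wild type and UBR2-/- testes came from mice aged 17 days on a mixed 129SV and C57BL background, with 1 Affymetrix mouse genome 430A 2.0 array for each genotype. For each array the labels name 2 testes, taken from different mice of one litter, and they do not say whether that RNA was pooled. At this age the first wave of germ cells has reached the pachytene stage of meiosis and few cells are beyond it. A single array for each genotype allows no test, so no p-value is given and every difference describes these arrays only.

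Adenylate kinases move a phosphate between adenine nucleotides, so that spent ADP yields ATP and AMP, and nucleoside diphosphate kinases pass the terminal phosphate of ATP on to other nucleoside diphosphates through a phosphorylated histidine. Both families hold enzymes of the cytosol and of mitochondria that most cells use, and both have relatives built into cilia and sperm tails, where ATP is spent far from the mitochondria. NME5 belongs to the radial spokes of the axoneme, and NME7 lies inside the doublet microtubules of motile cilia and is also a part of the γ-tubulin ring complex, which starts new microtubules. These were taken as the sperm tail members, and the other genes as the general ones. AK1, counted as general, has been found in the mouse sperm tail too.

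Promoters are shown for Nme7 and Ak1. Among the members searched, these were the ones whose start site windows held an arm of the X-box. This is the motif bound by RFX factors, which switch on many genes of cilia and sperm tails. RefSeq windows of the GRCm38.p6 build, each with 250 bases before and 50 after an annotated start, were used for 8 members (16 windows). Nme5 was left out of this promoter search, so its promoter was not tested for any motif. In the sequences, capitals mark this arm, GTTGCC or its reverse complement GGCAAC. Which start is used in these testes was not tested.
Nme7, chr1:164307422-164307721, plus strand: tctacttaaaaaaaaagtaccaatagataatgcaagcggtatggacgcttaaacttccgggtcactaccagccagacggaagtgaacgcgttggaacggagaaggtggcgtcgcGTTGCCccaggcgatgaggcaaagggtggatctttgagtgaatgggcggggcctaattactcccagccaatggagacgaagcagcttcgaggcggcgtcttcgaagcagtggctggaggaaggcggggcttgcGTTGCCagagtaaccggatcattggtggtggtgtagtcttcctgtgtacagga
Ak1, chr2:32621508-32621807, plus strand: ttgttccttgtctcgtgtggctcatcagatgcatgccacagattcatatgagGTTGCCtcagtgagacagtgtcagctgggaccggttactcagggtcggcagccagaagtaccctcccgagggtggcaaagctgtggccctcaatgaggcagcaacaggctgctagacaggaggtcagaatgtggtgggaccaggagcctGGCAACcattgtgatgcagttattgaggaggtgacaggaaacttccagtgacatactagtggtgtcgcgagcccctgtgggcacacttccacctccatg
Ak1, chr2:32629250-32629549, plus strand: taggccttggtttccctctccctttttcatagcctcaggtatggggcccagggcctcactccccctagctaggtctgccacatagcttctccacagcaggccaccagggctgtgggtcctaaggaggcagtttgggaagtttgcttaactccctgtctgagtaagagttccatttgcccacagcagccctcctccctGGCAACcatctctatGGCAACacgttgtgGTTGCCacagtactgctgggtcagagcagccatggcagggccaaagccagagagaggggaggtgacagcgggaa
The Nme7 window held 2 arms, at bases 115 to 120 and 248 to 253 of the window, and the latter lies across the annotated start. Of the 4 windows of Ak1, the one at 32621508 held 2 arms and the one at 32629250 held 3, and the remaining windows of Ak1 and those of Ak3, Ak4, Nme1, Nme2, Nme3 and Nme4 held 0. Searched on both strands of all 32851 windows in the table, the arm was found in 12.5%, and 2 or more arms in 1.02%. The cAMP response element TGACGTCA, bound by CREB and CREM factors, had 0 matches in the 16 member windows and was found in 1.79% of all windows. A match describes letters and not binding.

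The deposited arrays had median signals of 48.7 (wild type) and 48.75 (UBR2-/-), a level that scaling before deposit may have set. The log2 ratios of 21 spike-in control probe sets centred on 0.34. Signals are linear intensities on the authors' scale, and those under the 40th percentile of their array (24.4 for wild type, 24.7 for UBR2-/-), called the floor, were raised to it before a log2 ratio of UBR2-/- over wild type was taken. Ubr2 itself had 57.2 in wild type and 14.3, below the floor, in UBR2-/-, at least 2.32-fold lower by its 1 probe set; no source used here gives the place of that probe set relative to the deleted part. Genes were compared where the mean of both signals reached the mean of both floors. Of these 8091 genes, 285 (3.52%) were lower in UBR2-/- by 2-fold or more and 28 (0.346%) were higher by as much, around a median log2 ratio of 0.07. As a measure of technical spread, genes that several probe sets read on these arrays gave an SD per probe set of 0.24 on the log2 ratio scale for dim genes, 0.19 for intermediate ones and 0.14 for bright ones, which leaves out error between arrays and animals. Markers of pachytene and later spermatocytes were lower on the UBR2-/- array: of 14, 3 were compared through the wild type array only and could only come out lower, and 8 of the 11 above the floor on both arrays were lower by at least 2-fold. None of the 14 was at a signal of 0 on both arrays, and their summed signal was 11493 on wild type and 2622 on UBR2-/-. Early meiotic genes summed to 8918 and 8550 over 8 genes, of which 1 was at least 2-fold lower, the break-forming enzyme gene Spo11 (555.7 and 229.8). Sertoli cell markers summed to 7661 and 10037 over 10 genes, a difference carried mostly by Clu (5186.1 and 7075.9), and 1 of them was at least 2-fold lower, the hormone gene Amh (59.7 and 25.5). Peritubular myoid markers summed to 2208 and 3149 over 6 genes. In whole testis RNA, fewer cells of a type and less RNA per cell cannot be told apart. Most spermatid markers had a mean signal below the mean floor (7 of 9 read). Of the 2 compared, 1 was at least 2-fold higher on UBR2-/-, Prm1 (35.3 and 94.0), and the other lay within 2-fold. Of 7 compared spermatogonial markers 1 was at least 2-fold lower, Id4 (778.8 and 371.3). Both erythrocyte markers read were below the mean floor, as were both markers read for ciliated ducts outside the germ line, Foxj1 and Pax8.

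Among the kinases, 1 of 8 compared genes was lower in UBR2-/- by 2-fold or more, the radial spoke gene Nme5, against 3.52% of all compared genes. At least 2-fold higher were 0 of the 8, against 0.346% of all genes, and 7 lay between. All 8 were above the floor on both arrays by their brightest probe set, so none was compared through the wild type array alone, while the shares of all genes include such genes. Over the 8 genes the median log2 ratio was -0.0016, and 3 lay above and 5 below the median of 0.07 for all genes. By brightest probe sets, the sperm tail members and Ak1 were the lowest, while the other general enzymes lay between -0.01 and 0.26. A second probe set of Nme1 had a log2 ratio of -0.68, below those of Nme7 and Ak1.

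The signal of Nme5 was 146.2 in wild type and 58.4 in UBR2-/-. Both signals stood clear of the floor, and the gene was 2.50-fold lower, with a log2 ratio of -1.32 that was 5.46 times the probe set SD of dim genes. Of the 8091 compared genes 173 had a ratio at or below it. Nme5 was read by 1 probe set, so the value has no second reading on the array. The pachytene markers given above were lower on the same array, and their part in this difference was not tested.

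Nme7 was lower by a smaller step, with 340.3 in wild type and 252.1 in UBR2-/-. This is 1.35-fold lower, a log2 ratio of -0.43, or 3.06 times the probe set SD of bright genes, and 10.9% of compared genes were lower still. The mean signal of Nme7, 296.2, lay just above the lower limit of the bright class, 284.3, under which the SD was 0.19 and not 0.14. Its log2 ratio lay 0.89 above that of Nme5, so the sperm tail members did not share one size of difference. Nme7 too was read by 1 probe set, and the part of the pachytene markers, lower on the same array, was not tested here either.

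**Figure D1:**
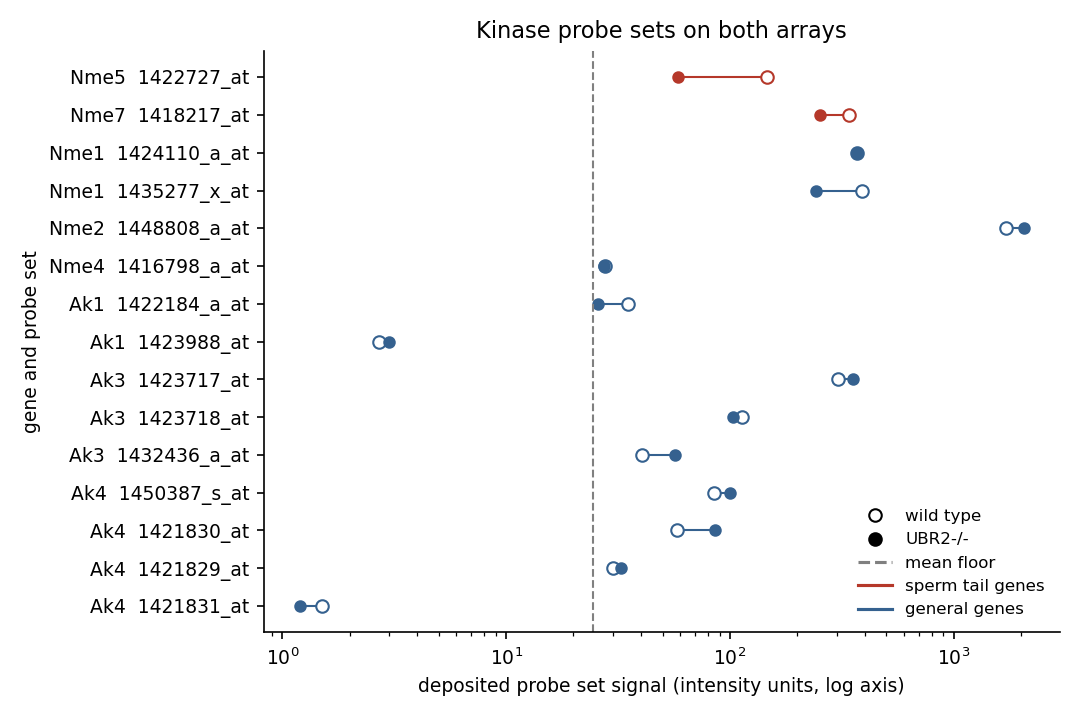
Signals of the 15 kinase probe sets (1 row each, log axis in intensity units) on the wild type array (open points) and the UBR2-/- array (filled points), with the mean floor of 24.55 as a dashed line. The sperm tail genes (red) are lower on the UBR2-/- array, Nme5 from 146.2 to 58.4 and Nme7 from 340.3 to 252.1, while general genes (blue) lie on either side.

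The cytosolic nucleoside diphosphate kinases did not follow Nme5. Nme2, which encodes a main cytosolic subunit, had 1707.9 in wild type and 2051.9 in UBR2-/-, 1.20-fold higher with a log2 ratio of 0.26. Its 1 probe set differed between the arrays by 1.87 times the probe set SD of bright genes. Nme1, which encodes the closely related partner subunit, had 369.9 and 370.4 by its brightest probe set, a log2 ratio of 0.0019. The other probe set of Nme1, whose name ends in _x_at, had 387.3 on wild type and 241.7 on UBR2-/-, a log2 ratio of -0.68. The readings of Nme1 therefore disagree by more than the probe set SD of 0.14, and the second belongs to a class of probe sets that may bind further transcripts, which is what that ending marks. Nme1 and Nme2 are near-identical neighbours on chromosome 11, so signal of one may reach probes for the other.

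The mitochondrial Nme4 was dim, with 27.6 on wild type and 27.5 on UBR2-/-, both just above the floor, and a log2 ratio of -0.0052. At this signal its level cannot be told from the floor on either array. Nme3, whose protein sits at the mitochondrial surface, shares its probe set with the mitochondrial ribosome gene Mrps34. That shared probe set had 52.0 and 50.9, a log2 ratio of -0.03, and which gene gave the signal is not known.

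Of the adenylate kinases, the mitochondrial ones were close to wild type or slightly above. Ak3, which uses GTP in the mitochondrial matrix, had 303.0 on wild type and 355.0 on UBR2-/- by its brightest probe set, 1.17-fold higher with a log2 ratio of 0.23. Its other probe sets had 113.4 and 103.4 (log2 ratio -0.13) and 40.5 and 57.0 (0.49), so the direction of Ak3 differed between probe sets. Ak4, a second matrix enzyme, had 85.1 and 100.5 by its brightest probe set, a log2 ratio of 0.24. Further probe sets of Ak4 had 58.3 and 85.8 (log2 ratio 0.56) and 30.0 and 32.6 (0.12), and the remaining one was below the floor on both arrays at 1.5 and 1.2. Unlike Ak3, the 3 probe sets of Ak4 above the floor lay on the same side of 0, on the deposited scale. Scaled on the bacterial and phage spike-in controls, Ak3, Ak4 and Nme2 turned to log2 ratios of -0.11, -0.10 and -0.08.

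Ak1, the cytosolic adenylate kinase of muscle and other tissues, had 35.1 on wild type and 25.7 on UBR2-/-. This is 1.37-fold lower, a log2 ratio of -0.45, next to the -0.43 of Nme7. The UBR2-/- signal lay just above the floor of 24.7, the difference was 1.86 times the probe set SD of dim genes, and the other probe set of Ak1 was below the floor on both arrays at 2.7 and 3.0. The ratio of Ak1 is therefore less well measured than that of Nme7. Promoter windows with and without X-box arms were not compared in their ratios.

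**Figure D2:**
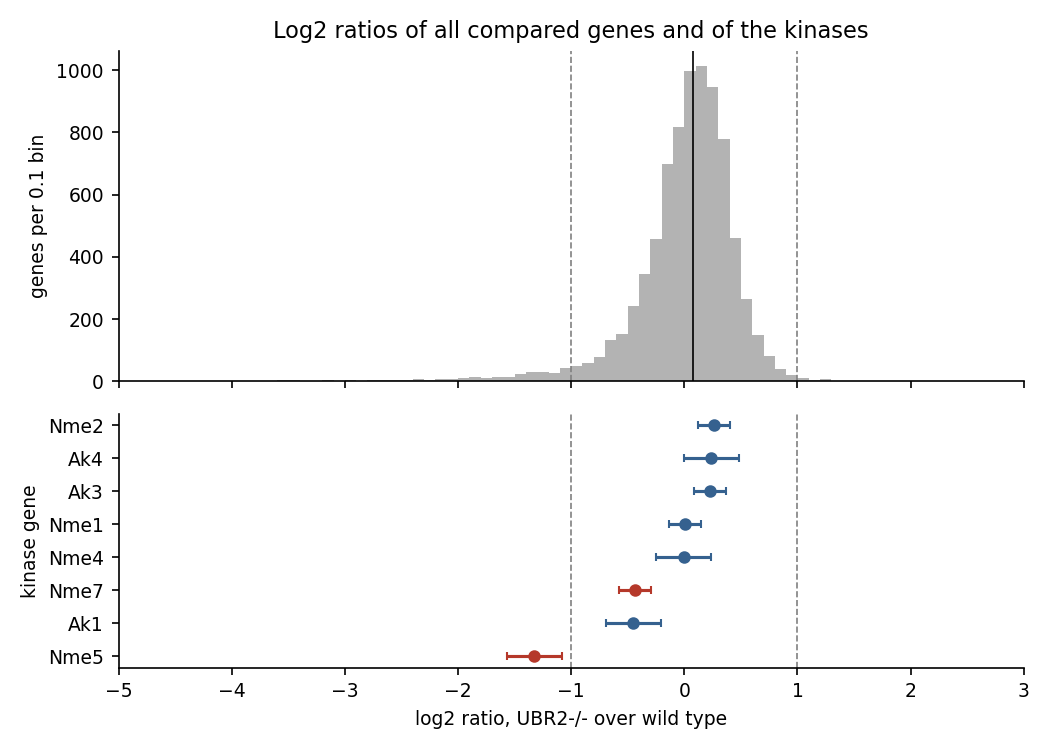
Histogram of the log2 ratios (UBR2-/- over wild type) of the 8091 compared genes, above the ratio of each kinase gene with bars of 1 probe set SD for its signal class. Dashed lines mark 2-fold and the solid line the median of all genes at 0.07; Nme5 at -1.32 is the kinase beyond 2-fold.

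The sperm tail members had a mean log2 ratio of -0.88 (n = 2 genes) and the general ones 0.05 (n = 6 genes, from -0.45 to 0.26), a difference of -0.93. Most of this rested on Nme5: with Nme7 alone as the sperm tail member the difference was -0.48, and with Nme5 alone -1.37. The groups overlap, since Ak1 was lower than Nme7 by 0.02. Genes of one array are not replicates of a genotype, so this difference has no test. With Ak1 counted among the sperm tail genes it was -0.88.

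The complexes in which the sperm tail members work were then set beside them. Of 16 radial spoke genes 9 were read and 5 compared. Above the floor on both arrays were 3, and these 3 were lower in UBR2-/- by 2-fold or more, against 3.52% of all compared genes. Lrrc23 had 295.6 and 26.0, 11.4-fold lower. Its UBR2-/- signal lay just above the floor of 24.7, so the size of that difference is close to a bound. Ropn1l had 1186.4 and 204.7, 5.80-fold lower. Rsph1, a spoke head protein, had 2242.1 and 1054.1, 2.13-fold lower. Rsph9, also of the spoke head, and Dnajb13, a chaperone-like spoke protein, were below the floor in UBR2-/-, which bounds them at 3.94-fold and 3.52-fold lower or more. Those last genes passed the filter through the wild type array only, so they could only come out lower and are left out of the count. Nme5, at 2.50-fold, lay within the span of the spoke genes.

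Genes for proteins inside the doublet microtubules, where NME7 lies, were spread widely, and most of those compared lay below the value of Nme7. Of 25 such genes 6 were read and compared, and 4 were above the floor on both arrays. Of these 4, 2 were at least 2-fold lower and 0 at least 2-fold higher, against 3.52% and 0.346% of all compared genes, shares that include genes below the floor on 1 array. Tekt1 and Tekt2, tektins of the sperm tail, were 5.93-fold and 2.24-fold lower. Ribc2, compared through the wild type array only, was at least 2.55-fold lower. Mns1 had 424.0 and 217.6 (log2 ratio -0.96) and Cfap20 had 627.5 and 535.8 (-0.23). The X-linked Ribc1 was compared through the UBR2-/- array only, with 23.0 and 59.3, at least 2.43-fold higher. Of the γ-tubulin ring complex 8 of 11 genes were compared, with 0 beyond 2-fold and a median of -0.02, among them Tubg1, the γ-tubulin gene, at 0.04 and Tubgcp2 at -0.08. The lowest of that list were Cdk5rap2 at -0.96 and Mzt2 at -0.85, and the highest had 0.29. Nme7 lay above both of these lowest genes and below every other compared gene of the list.

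Among compared genes of other proteins that handle nucleotides, log2 ratios lay on both sides of 0. Nme6, another nucleoside diphosphate kinase, had 113.2 and 79.9, a log2 ratio of -0.50 close to that of Nme7 and Ak1. Ak5 was the 1 further adenylate kinase with a probe set of its own, and it was below the floor on both arrays at 11.2 and 12.4. Of 10 compared kinases of nucleosides and nucleoside monophosphates 0 were beyond 2-fold, with log2 ratios from -0.67 to 0.38 and a median of 0.10. Guk1, the guanylate kinase, and Cmpk1, which phosphorylates UMP and CMP, had 0.29 and 0.25. Of 6 creatine kinase, ADP/ATP carrier and mitochondrial pore genes 0 were beyond 2-fold, with log2 ratios from -0.11 to 0.57. Ckb, the brain-type creatine kinase, had -0.06 and Slc25a4, an ADP/ATP carrier, had 0.29. In the list for AMP sensing and deamination 0 of 5 were beyond 2-fold, with log2 ratios from -0.51 to 0.51. Subunits of the AMP-activated kinase went both ways, with Prkab1 and Prkag1 at 0.13 and 0.47 and Prkag2 at -0.51. The ribonucleotide reductase genes, whose enzyme takes nucleoside diphosphates as its substrate, also had 0 of 3 beyond 2-fold, with Rrm1 at -0.17 and Rrm2 at 0.26. The medians of these last lists were 0.14, 0.13 and 0.18, beside 0.12 for the general kinases and 0.07 for all compared genes. The counts of 0 stand against 3.52% lower and 0.346% higher among all genes, and in lists this short they lie near those shares.

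**Figure D3:**
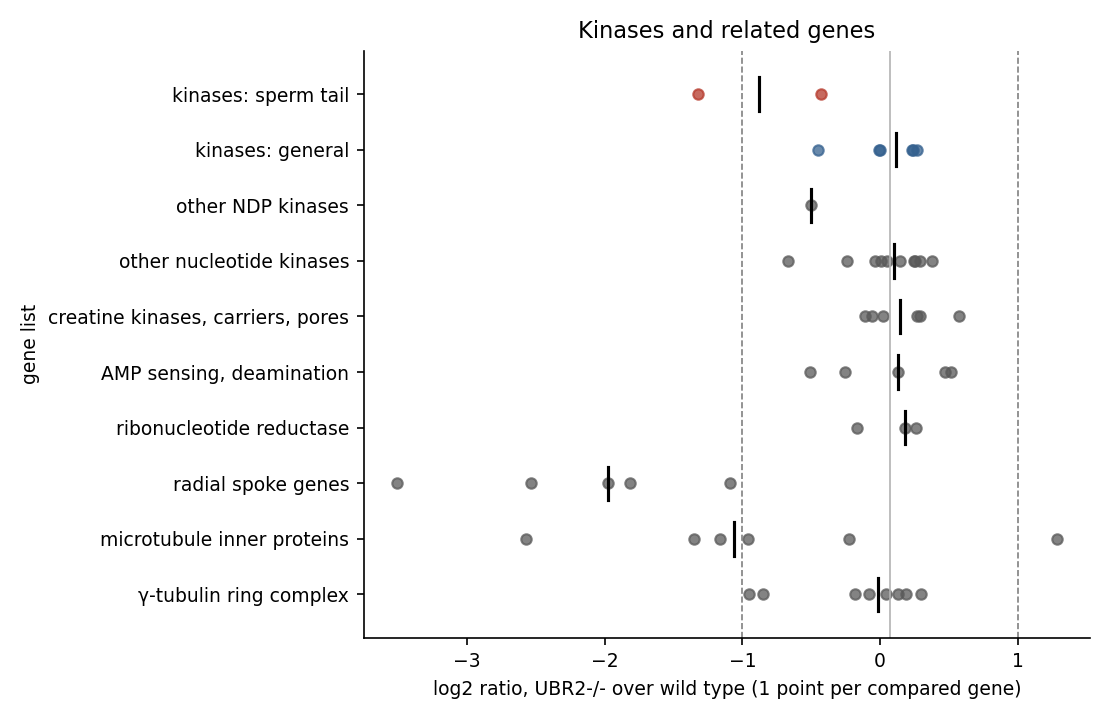
Log2 ratios (UBR2-/- over wild type) of the kinase genes and of the compared genes of each related list, 1 point per gene with a black bar at the median, dashed lines at 2-fold and a grey line at the median of all genes; Rsph9, Dnajb13, Ribc1 and Ribc2 are drawn at their bounds, which the medians of their lists include. Radial spoke genes lie from -3.51 (Lrrc23, just above the floor in UBR2-/-) to -1.09, while the nucleotide enzyme lists stay between -0.67 and 0.57.

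Likeness across 2 arrays comes down to the log2 ratio alone. Among 7798 compared genes above the floor on both arrays, those nearest to Nme5 were Xrcc4, a DNA end-joining factor (-1.32), Tspyl4 (-1.33) and Ccdc92 (-1.33), and 25 genes lay within 0.05 of it. Nearest to Nme7 were Cks2, a partner of cyclin-dependent kinases, Atp11a, a lipid flippase, and Hnrnpll, a splicing regulator, all at -0.43, with 255 genes within 0.05. So many genes share these ratios that the names carry no more than the ratio.

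Nme5 had the lowest log2 ratio of the compared kinases under each of the 9 alternative scalings, floors and probe set rules. Its place beyond 2-fold was lost with the floor at the 60th percentile, which raises the UBR2-/- signal and left 6 kinases compared.

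**Figure D4:**
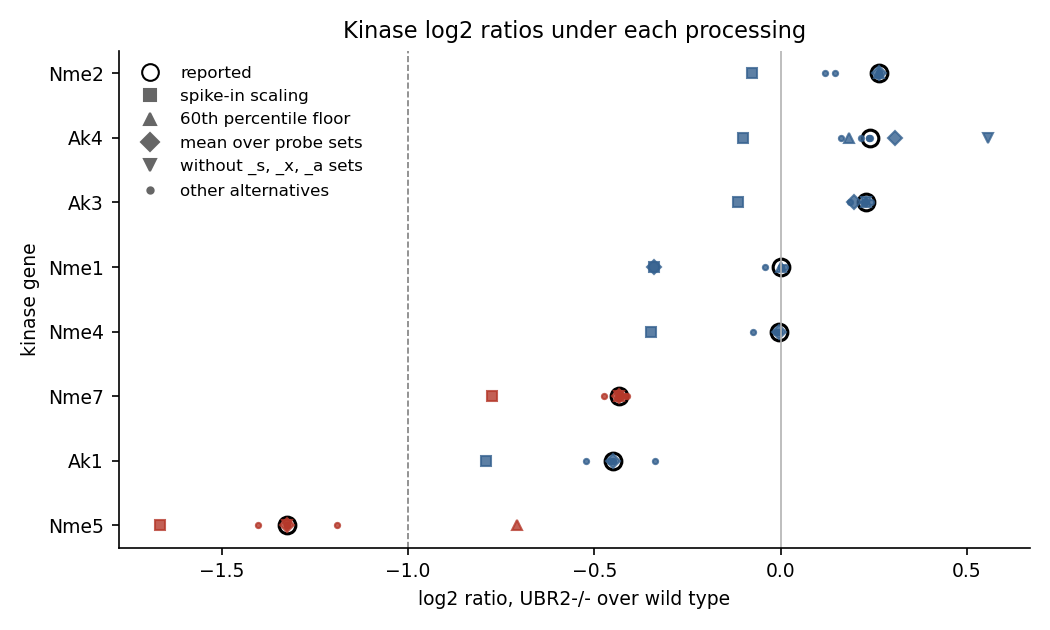
Log2 ratio (UBR2-/- over wild type) of each kinase gene as reported (ring) and under the alternative processings (small symbols); the dashed line marks 2-fold lower. Nme5 runs from -1.67 to -0.71 and Nme7 from -0.78 to -0.41, and spike-in scaling (squares) shifts every gene to the left.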

How the data were processed

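Messenger RNA of testes was measured on 1 array per genotype. The authors deposited 1 linear intensity (signal) per probe set, made with MAS5, per the submitters' processing notes, and no source used here gives its version, its settings or detection calls. The deposited scale was kept. Of 22626 probe sets other than 64 controls, 20380 had 1 gene symbol and were used, 691 had several and 1555 none; 20351 matched the GRCm38.p6 gene table, used for names and chromosomes. A gene took the value of its brightest probe set. Signals under the 40th percentile were raised to it, genes with a mean signal of at least 24.55 were compared, and counts use a threshold of 2-fold. No test was possible, and the number of arrays limits the precision. As a check of RNA quality, Actb had a 3' to 5' signal ratio of 1.75 (wild type) and 1.64 (UBR2-/-). Named genes are all members, Ubr2, and the 3 genes nearest in ratio to Nme5 and Nme7. From each list of related genes (not of cell type markers), the genes beyond 2-fold and the first 2 compared are named. Nme6, Ak5, Mns1, Cfap20, Foxj1, Pax8, Spo11, Amh, Clu, Prm1, Id4, Mzt2, Cdk5rap2 and Prkag2 complete small groups or were named after their values were seen. The members and lists were chosen with earlier results of these data known. Alternatives were scaling to equal medians, on spike-in controls, by quantiles or by loess (span 0.3), a floor at the 25th or the 60th percentile, a pseudocount of 10 without a floor, the mean over probe sets, thresholds of 1.5-fold and 3-fold, no probe sets with names in _s_at, _x_at or _a_at, and Ak1 moved to the sperm tail group. The calculation was tested on simulated data with python 3.11.15, pandas 2.3.3 and statsmodels 0.14.6.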

Additional observations from a re-analysis of the deposited data

How the results depend on the processing

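No result changed direction among those counted as beyond 2-fold. Scaling on the spike-in controls, whose median log2 ratio over 21 probe sets was 0.34, took the median of all genes from 0.07 to -0.27 and moved Nme5 to -1.67, Nme7 to -0.78 and the median of the kinase genes to -0.34. The floor at the 60th percentile moved Nme5 to -0.71, the count of kinases at least 2-fold lower to 0 and the difference between sperm tail and general genes to -0.74; the floor sets the UBR2-/- signal of Nme5 there. Leaving out probe sets ending in _s_at, _x_at or _a_at left 4 kinases (Ak3, Ak4, Nme5 and Nme7) and moved that difference to -1.27. A threshold of 3-fold gave 0 kinases lower, against 121 of 8091 genes. Otherwise Nme5 was below -1 in 8 of 9 alternatives and Nme7 below 0 in 9 of 9. Of 48 alternative values of the other kinases, 39 moved by less than the probe set SD. Averaging probe sets took Nme1 to -0.34. The count of kinases at least 2-fold higher was 0 in 11 of 11 alternatives. Over all genes, the count at least 2-fold lower ran to 520 with spike-in scaling and 152 with the 60th percentile floor, against 285, and the count higher to 7 and 8, against 28; with the floor at the 25th percentile 132 were higher and 402 lower. No paired analysis was possible because each genotype has 1 array. Signals near the floor limit Ak1 and Nme4.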
